A study of Mus musculus with 14 samples.

Results

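Tissue content was compared between the MC903-treated control arms of 2 experiments on mouse neck skin, gene by gene and library by library. The arms hold 6 of the 14 RNA libraries of the series, 3 in each arm, and were taken by their labels. The fl/fl arm came from C57BL/6J Il4ra fl/fl mice, in which the gene of the IL-4 receptor alpha chain is flanked by loxP sites, aged 6 to 7 weeks and given no injections. The isotype arm came from C57BL/6J mice aged 6 weeks, which received 20 µg of isotype control antibody by intraperitoneal injection every other day, 3 times before MC903 and on through it. Both arms were labelled female and had MC903 (calcipotriol, a vitamin D analogue that induces dermatitis), 1 nmol in 100 µL, on shaved neck skin each day for 6 days. Frozen skin was cut into sections of 20 µm, and the polyadenylated RNA of the sections was sequenced. Genotype, injection and experiment differ together between the arms and cannot be told apart. No label says that each library was a separate mouse, so a p-value here reflects the spread among these libraries alone, which may be technical. The other 8 libraries (3 of Pdgfra-Cre Il4ra fl/fl mice, here cKO, 3 with the antibody MAR1 and 2 untreated) entered the fit for its estimate of the spread. The names of the 2 untreated libraries share a number, and no label says whether they came from the same mouse.

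Neck skin is a stack of tissues. The epidermis of keratinocytes lies on a dermis of fibroblasts, vessels, nerves and mast cells, followed by hair follicles that reach into fat, and by a thin sheet of fast skeletal muscle, the panniculus carnosus. Below and beside the skin of the neck lie striated neck muscles, lymph nodes and the salivary glands. Each of these tissues makes transcripts that the others hardly make, such as sarcomere proteins in muscle or antigen receptor chains in lymphocytes, so the RNA of a bulk sample is a mixture in which each tissue can be followed by its own genes. In bulk RNA, fewer cells of a type and less RNA per cell cannot be told apart.

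The 6 libraries held 34.3 M to 48.0 M estimated counts. Levels below are CPM, the usual counts per library size, scaled with TMM in edgeR, and fold changes are fl/fl over isotype. The ± after a log2 fold change is a standard error derived from that fold change and the F statistic of edgeR's test. Where an arm has few counts, the fold change and its ± depend on the prior count. A gene was called when the Benjamini-Hochberg adjusted p of edgeR's quasi-likelihood test was under 0.05. The fl/fl libraries differed far more among themselves than the isotype libraries, with a chi-square per degree of freedom of 485 to 985 between pairs against 53.5 to 79.6. They also held 16884 to 17857 detected genes against 20100 to 20730, and mitochondrial transcripts took 2.28% to 4.18% of counts against 2.12% to 2.33%. Markers of skin were present in all 6 libraries. Krt14, the main keratin of basal keratinocytes, stood at 3003, 11768 and 28549 CPM in fl/fl libraries 1, 2 and 3 and at 13911, 18935 and 16278 CPM in isotype libraries 1, 2 and 3.

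Of 20939 genes tested, 1094 were called (5.22%), 262 of them higher in fl/fl (1.25%) and 832 lower (3.97%). Of the 262 higher genes, 95 were on one of 44 gene lists of tissues, cell types and programmes and 167 on none. The listed ones were mostly 34 lymphoid, 32 skeletal muscle, 6 salivary gland, 6 white fat, 5 dermal fibroblast and 5 red blood cell genes. Of the 832 lower genes, 493 had a mean under 1 CPM over the 6 libraries, 444 had no count in any fl/fl library, and 42 were on a list, 17 of these neuronal. Of all genes tested, 2522 (12%) lay above all isotype libraries in every fl/fl library and 4284 (20.5%) lay below. Among the called genes this held for 180 of the 262 higher and 830 of the 832 lower ones. These calls rested on single libraries and on the makeup of the fit: edgeR called 77, 0 and 3176 genes without fl/fl library 1, 2 or 3 (4213 at an unadjusted p under 0.05 without library 2), 6, 55 and 6 without isotype library 1, 2 or 3, and 3 without the MAR1 libraries. A fit of the 6 libraries alone called 455 genes, 295 of them shared with the 1094, and their split over tissues differed. In it 79 of 166 skeletal muscle genes were called higher, but 1 of 157 lymphoid, 0 of 21 salivary gland, 1 of 43 fat (white and brown) and 0 of 48 dermal genes. Levels by library are therefore given for the genes described in detail.

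**Figure D1:**
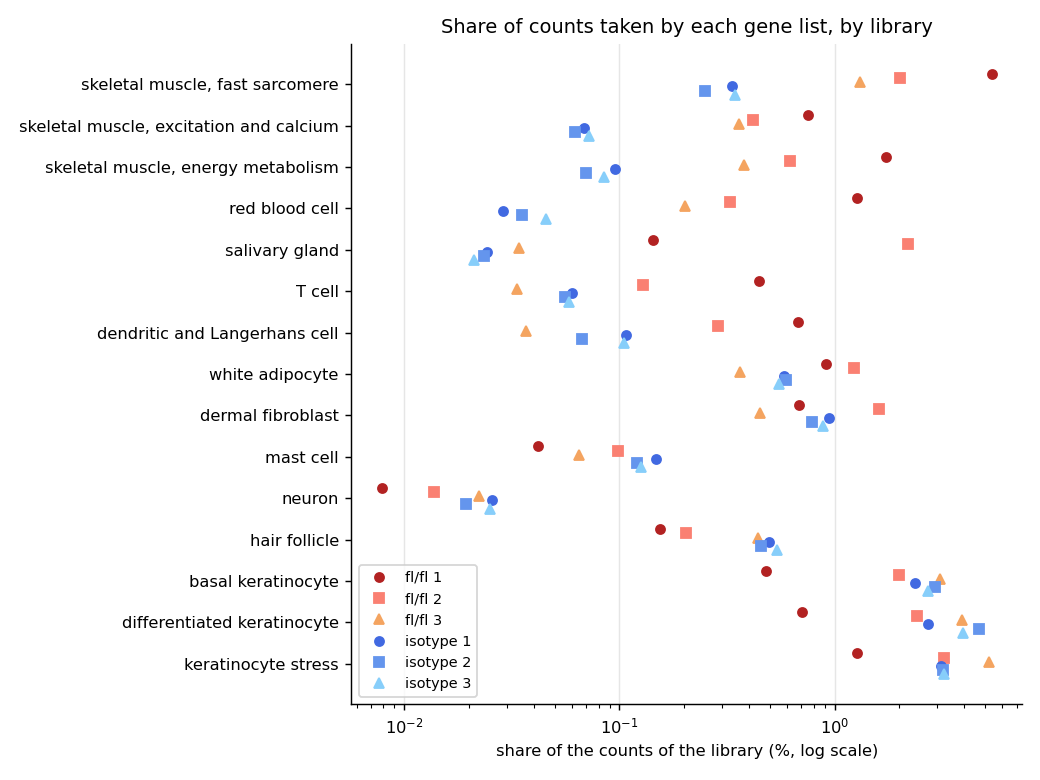
Share of the counts of each library (x axis, percent, log scale) taken by 15 gene lists (y axis); circles, squares and triangles are libraries 1, 2 and 3, fl/fl in reds and isotype in blues. The isotype libraries lie close together in each list, whereas fl/fl library 1 holds most muscle, blood and T cell counts, fl/fl library 2 most salivary gland counts, and fl/fl library 3 lies at or above the isotype libraries in keratinocyte stress genes.

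The 32 skeletal muscle genes called higher stood above isotype in all 3 fl/fl libraries. The fast sarcomere list, the contractile proteins of fast muscle fibres, took 5.38, 2 and 1.31% of counts in fl/fl libraries 1, 2 and 3 and 0.332, 0.25 and 0.344% in the isotype libraries. Of its 57 tested members 11 were called higher and none lower, with a median log2 fold change of 2.18 against -0.10 over all genes tested. The excitation and calcium list (9 of 40 higher, median 2.70) and the energy metabolism list (11 of 36 higher, median 2.41) also had no member called lower. Over the 181 muscle genes tested, leaving out 1 library gave between 0 and 36 higher calls and a median of 1.66 to 2.39. No overlap between the arms, with fl/fl above, was seen in 47 of 57, 32 of 40 and 30 of 36 members of these lists. With fl/fl below it was seen in 0, 1 and 1. Over all genes tested these shares were 12% and 20.5%.

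The promoter windows of a sarcomere gene and a calcium store gene that were called higher, and of the 4 called globin genes of red blood cells described below, are shown because these members differed together. They are the 250 bases before the annotated start, from RefSeq on build GRCm38.p6, whereas the submitters' processing notes name GRCm39. Capitals mark the letters CANNTG (the E-box, read by MyoD family factors) in the muscle genes, and CACCC (read by Klf factors), CCAAT and TATAAA in the globin genes, searched on both strands. In the whole promoter table of 27025 genes, 66.0% hold CANNTG, 51.3% CACCC, 34.5% CCAAT and 13.0% TATAAA in this window, so a match is common and describes the sequence only. Mylpf lies at chr7:127211358-127211607, plus strand; Casq1 at chr1:172219896-172220145, minus strand; Hba-a1 at chr11:32283422-32283671, plus strand; Hba-a2 at chr11:32296242-32296491, plus strand; Hbb-bs at chr7:103827929-103828178, minus strand; and Hbb-bt at chr7:103813924-103814173, minus strand.

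Mylpf: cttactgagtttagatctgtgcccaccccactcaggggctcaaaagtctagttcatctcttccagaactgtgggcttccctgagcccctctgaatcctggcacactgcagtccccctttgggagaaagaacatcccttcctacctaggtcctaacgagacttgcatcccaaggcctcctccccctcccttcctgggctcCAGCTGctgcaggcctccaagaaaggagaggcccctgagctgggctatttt
Casq1: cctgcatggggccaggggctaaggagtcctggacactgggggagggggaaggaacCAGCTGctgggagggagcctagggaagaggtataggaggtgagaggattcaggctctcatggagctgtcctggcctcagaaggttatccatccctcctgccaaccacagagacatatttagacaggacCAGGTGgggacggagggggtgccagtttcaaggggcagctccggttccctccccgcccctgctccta
Hba-a1: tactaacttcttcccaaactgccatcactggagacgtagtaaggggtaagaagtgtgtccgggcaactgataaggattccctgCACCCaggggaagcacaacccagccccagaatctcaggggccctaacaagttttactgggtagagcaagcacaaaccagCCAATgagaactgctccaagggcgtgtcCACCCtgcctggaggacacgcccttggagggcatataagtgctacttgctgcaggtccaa
Hba-a2: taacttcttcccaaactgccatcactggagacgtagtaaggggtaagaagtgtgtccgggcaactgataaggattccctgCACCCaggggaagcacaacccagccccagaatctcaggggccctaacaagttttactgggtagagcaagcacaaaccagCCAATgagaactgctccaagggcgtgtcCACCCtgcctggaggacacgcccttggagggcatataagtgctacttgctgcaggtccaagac
Hbb-bs: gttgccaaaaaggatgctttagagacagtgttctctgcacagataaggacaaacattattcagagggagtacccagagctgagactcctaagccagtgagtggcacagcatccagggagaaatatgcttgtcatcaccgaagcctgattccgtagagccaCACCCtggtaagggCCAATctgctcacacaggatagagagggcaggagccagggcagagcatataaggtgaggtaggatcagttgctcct
Hbb-bt: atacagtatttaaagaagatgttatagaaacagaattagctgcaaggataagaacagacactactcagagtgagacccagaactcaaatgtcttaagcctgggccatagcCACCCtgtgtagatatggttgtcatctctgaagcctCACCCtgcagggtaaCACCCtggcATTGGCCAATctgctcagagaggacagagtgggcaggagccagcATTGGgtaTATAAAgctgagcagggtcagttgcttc

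The Mylpf window held 1 CANNTG and the Casq1 window 2. Each of the globin windows held CACCC (2, 2, 1 and 3 matches in the order shown) and CCAAT (1, 1, 1 and 3), and of these 4 windows TATAAA was found in that of Hbb-bt. Among the called genes of the 3 fast muscle lists (11, 9 and 11), 24 had a promoter entry, under 80%, so no share over that set is given.

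Mylpf, the regulatory light chain of fast muscle myosin, stood at 7255, 1245 and 404 CPM in fl/fl libraries 1, 2 and 3 and at 61.7, 36.5 and 44.2 CPM in isotype libraries 1, 2 and 3. The 3 fl/fl libraries lay above every isotype library, with library 1 far above the others (log2 5.97 ± 1.38, adjusted p = 0.0381). Myl1, an essential light chain of fast myosin, showed the same order at 4571, 1029 and 388 CPM in fl/fl against 62.6, 55.8 and 53 CPM (log2 5.13 ± 1.37, adjusted p = 0.0488). Tmod4, which caps the thin filament of the sarcomere, stood at 177, 46.1 and 36.9 against 6.54, 4.96 and 6.43 CPM (log2 3.86 ± 0.92, adjusted p = 0.0396). The excess was not always greatest in fl/fl library 1. Hspb6, a small heat shock protein of muscle, stood at 137, 163 and 106 CPM in fl/fl and 9.5, 8.07 and 14.4 CPM with isotype (log2 3.67 ± 0.75, adjusted p = 0.0351), close to level across the fl/fl libraries. Trim72, which seals tears in the muscle fibre membrane, was as level, at 28.6, 23.5 and 28.5 against 7.05, 4.35 and 7.74 CPM (log2 2.07 ± 0.56, adjusted p = 0.0468). Ky, a protein of the Z disc region, stood at 22.4, 11.2 and 0.709 CPM in fl/fl and had 2 counts in the isotype libraries together (adjusted p = 0.0352).

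Of the defining markers of the sarcomere list, Tnnt3 (fast troponin T) and Actn3 (fast alpha-actinin) did not pass the test although the arms did not overlap. Tnnt3 stood at 6059, 1741 and 2279 CPM in fl/fl against 314, 214 and 297 CPM, and Actn3 at 1744, 540.4 and 399.8 against 56.2, 45.4 and 57.6 CPM (adjusted p = 0.144 and 0.125). Outside both arms, the sarcomere list took 2.09% of counts in 1 untreated library and 0.3% in the other. In the 6 cKO and MAR1 libraries the list took 0.0355% to 0.539%.

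Genes of the calcium store were called as well. Casq1, the calcium store protein of fast fibres, stood at 395, 226 and 22.1 CPM in fl/fl libraries 1, 2 and 3 and at 5.57, 3.31 and 4.44 CPM in isotype libraries 1, 2 and 3, with every fl/fl library above every isotype library (log2 5.59 ± 1.36, adjusted p = 0.04). Srl (sarcalumenin), another calcium binding protein of the store, was nearly level in fl/fl at 94.5, 100 and 68 CPM, against 7.93, 9.02 and 11.6 CPM (log2 3.20 ± 0.60, adjusted p = 0.0292). Tmem38a, a potassium channel of the store membrane, stood at 234, 125 and 183 against 18.9, 17.3 and 19.1 CPM (log2 3.30 ± 0.79, adjusted p = 0.0395). The channel genes Ryr1 and Cacna1s, defining markers that release calcium and sense voltage, did not pass (adjusted p = 0.196 and 0.0804), at 119, 129 and 54.3 against 22.7, 25.3 and 28 CPM and 94, 76.2 and 32.4 against 4.42, 3.92 and 6.55 CPM.

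In energy metabolism, Eno3, the muscle form of enolase, stood at 2528, 819 and 408 CPM in fl/fl and at 60, 40.3 and 44.7 CPM with isotype (log2 4.69 ± 1.20, adjusted p = 0.043). Pgam2, the muscle phosphoglycerate mutase, stood at 993, 309.9 and 72.6 against 16.6, 9.63 and 12.3 CPM (log2 5.16 ± 1.34, adjusted p = 0.0449). Cox7a1, a heart and muscle subunit of cytochrome c oxidase, stood at 135, 22.9 and 12.6 against 2.23, 1.07 and 1.26 CPM (log2 5.22 ± 1.01, adjusted p = 0.0325). In all 3 genes fl/fl library 1 was the highest and the arms did not overlap. Gys1, muscle glycogen synthase, was level within both arms, at 73.8, 89.2 and 84.6 against 23.4, 24.5 and 23.9 CPM (log2 1.79 ± 0.36, adjusted p = 0.0329). Mb (myoglobin) was higher as well, at 374, 209 and 71.4 against 18.5, 9.02 and 16 CPM (log2 3.91 ± 1.01, adjusted p = 0.0449). Ckm, muscle creatine kinase and the most abundant gene of the list, stood at 14864, 3399.5 and 2677 against 388, 234 and 294 CPM without passing the test (adjusted p = 0.0804).

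Other striated muscle lists held fewer calls. None of 21 tested muscle stem cell and myogenic factor genes was called, although 15 had a positive fold change (median log2 2.15). The arms did not overlap in 10 of them with fl/fl above and in 2 with fl/fl below, against 12% and 20.5% of all genes tested. Pax7, the satellite cell factor, had no count in fl/fl and 10 counts in the isotype libraries together, at most 0.173 CPM. Myog stood at 1.42, 1.5 and 0.827 against 0.114, 0.0865 and 0.292 CPM (adjusted p = 0.267). Of 27 slow and cardiac muscle genes only Ankrd23, a stress-responsive titin partner, was called (122, 86.2 and 68.8 against 22.7, 21.2 and 26.5 CPM, log2 1.98 ± 0.48, adjusted p = 0.0395). In 2 genes of this list, chosen after their values were seen, fl/fl library 3 stood apart. Tnni1 (slow troponin I) stood at 119 CPM against 18.2 and 44.3 CPM in fl/fl libraries 1 and 2 and 38.4 to 44.2 CPM with isotype. Myl7, the atrial light chain, reached 107 CPM there against 5.38 and 4 CPM, and 10.7 to 19 CPM with isotype. Neither gene passed the test (adjusted p = 0.582 and 0.47). All 32 muscle genes called higher lay above every isotype library in each of the 3 fl/fl libraries. With only fl/fl library 3 left in its arm (an alternative chosen after seeing the data), no muscle gene was called and the median log2 fold change of the 182 muscle genes then tested was 1.58, with -0.52 over all genes.

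**Figure D2:**
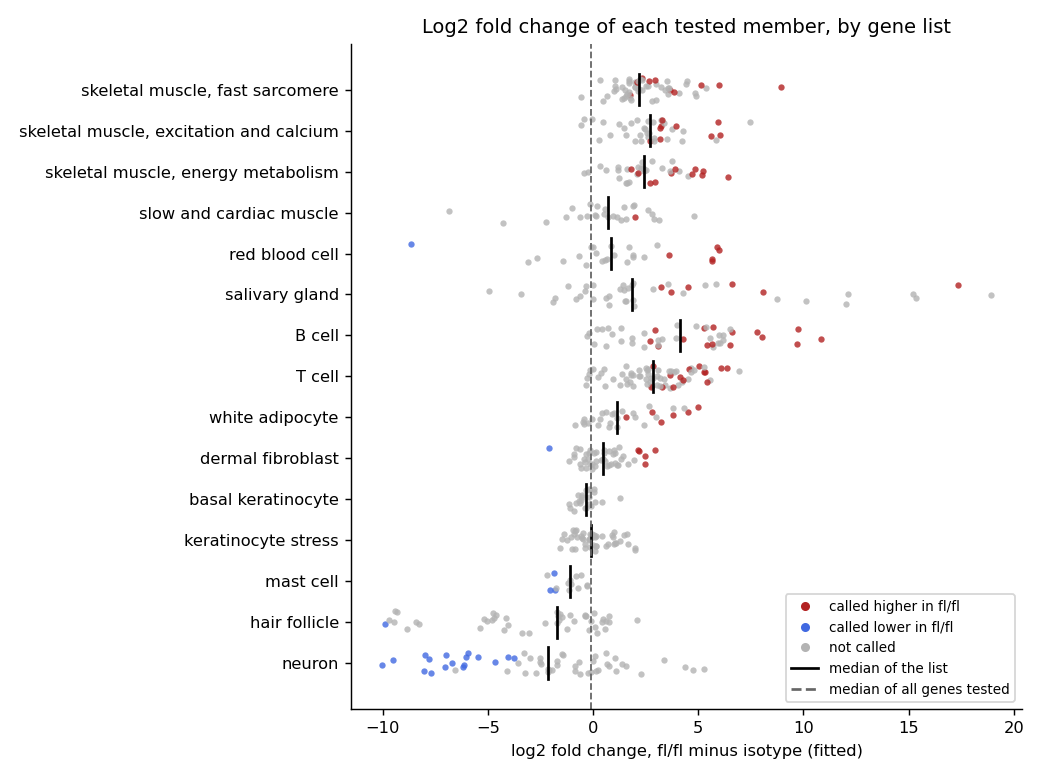
Fitted log2 fold change (x axis, fl/fl minus isotype) of each tested member of 15 gene lists (y axis); red and blue points passed an adjusted p under 0.05, black bars are list medians and the dashed line is the median of all genes tested. Most members of the muscle, B cell and T cell lists lie to the right of the dashed line, and called neuron genes lie to its left; the fitted values of genes with few or no counts in 1 arm depend on the prior count.

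The 5 red blood cell genes called higher also stood above isotype in every fl/fl library. The list took 1.28, 0.327 and 0.201% of counts in fl/fl libraries 1, 2 and 3 against 0.0288, 0.0353 and 0.0455% with isotype. In untreated skin it took 0.0997% to 0.168% and with MAR1 0.103% to 0.14%, above every isotype library and below every fl/fl library. In cKO it took 0.0258% to 0.0637%. Of 25 tested members 5 were called higher and 1 lower. Hbb-bs, an adult beta globin chain of haemoglobin, stood at 6812, 1396 and 1069 CPM in fl/fl libraries 1, 2 and 3 and at 27.9, 47.6 and 79.4 CPM in isotype libraries 1, 2 and 3. Hba-a2, an adult alpha globin chain, stood at 5046, 972 and 701 against 19, 36.1 and 76.7 CPM (log2 5.67 ± 1.01, adjusted p = 0.0275). The lowest fl/fl library of both genes was above the highest isotype library, and Hbb-bs was 59.9-fold higher (log2 5.90 ± 0.96, adjusted p = 0.0232). Hbb-bs stood at 234 to 553 CPM in untreated skin, 23.3 to 118 CPM with MAR1 and 22 to 99.6 CPM in cKO. Hba-a1 and Hba-a2, like Hbb-bs and Hbb-bt, are near-identical copies that share reads, so their separate values are uncertain. Alas2, the first enzyme of haem synthesis in red cell precursors, stood at 36.3, 14.1 and 20.7 against 1.37, 1.47 and 3.04 CPM (log2 3.59 ± 0.73, adjusted p = 0.0325). The member called lower was Trim58, which acts late in red cell maturation, with no count in fl/fl and 2.31, 0.721 and 1.93 CPM with isotype, at least 20.9-fold lower (adjusted p = 0.0245). Trim58 stood at 14.8 to 63.8 CPM with MAR1, 3.43 to 18.5 CPM in cKO and 0 to 0.0475 CPM in untreated skin. None of 13 tested platelet genes was called.

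Salivary gland genes were high in fl/fl library 2, present in library 1 and near isotype levels in library 3. The list took 0.144, 2.19 and 0.034% of counts in these libraries against 0.0243, 0.0236 and 0.0212% with isotype. Of 42 tested members 6 were called higher and none lower. Bpifa2, a protein secreted into saliva, stood at 733, 10949 and 0.118 CPM in fl/fl libraries 1, 2 and 3, with 2 counts in the isotype libraries together (adjusted p = 0.0355). Amy1, salivary amylase, stood at 267, 3287 and 7.39 CPM in fl/fl libraries 1, 2 and 3 and at 14.7, 9.65 and 11.6 CPM in isotype libraries 1, 2 and 3. Dnase1, a secreted nuclease, followed at 57.6, 719 and 1.06 against 0.714, 1.27 and 0.877 CPM (log2 8.08 ± 1.69, adjusted p = 0.0347). Amy1 passed the test (log2 6.63 ± 1.45, adjusted p = 0.0352) although fl/fl library 3 lay below every isotype library. Smr3a, a submandibular gland peptide gene, stood at 359 and 5916 CPM in fl/fl libraries 1 and 2 and had no count in the other 4 libraries (adjusted p = 0.0725, not called). Muc19, a mucin of the sublingual gland, was low in all 6 libraries, at most 0.856 CPM. Chia1, an acidic chitinase on none of the lists, followed the same libraries at 62.6 and 724 CPM and no count elsewhere in both arms, at least 3029-fold higher (adjusted p = 0.0433). In the 8 libraries outside both arms the salivary list took 0.0169% to 0.0625%.

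**Figure D3:**
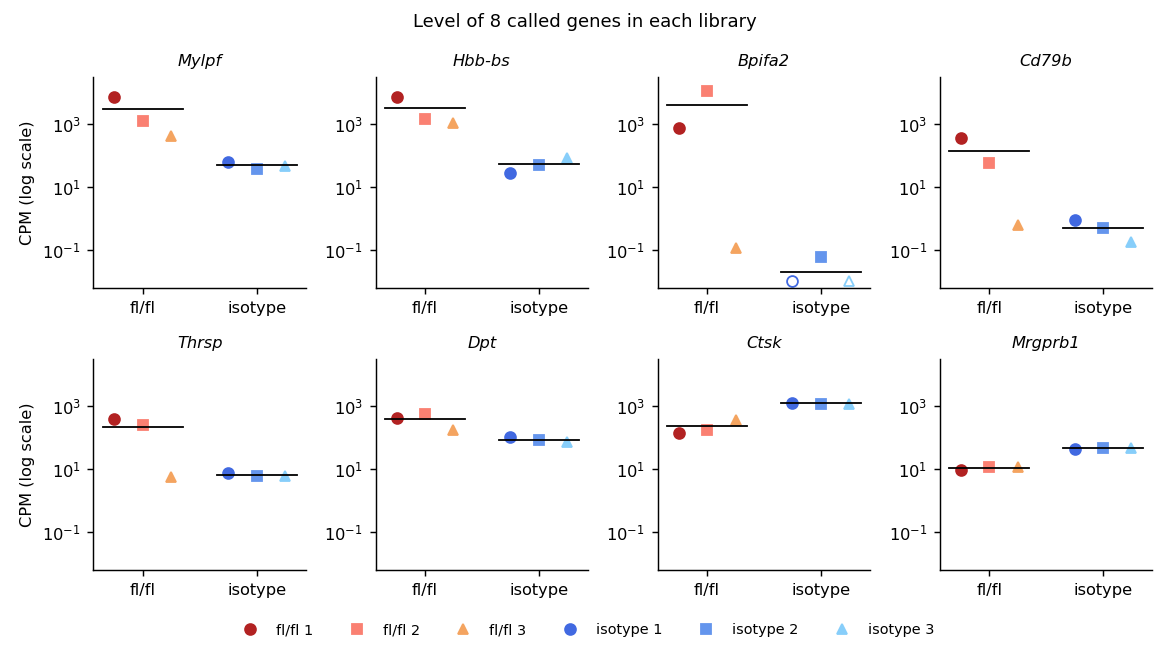
Level of 8 called genes in each library (y axis, CPM, log scale, the same range in all panels); symbols are libraries 1, 2 and 3 of each arm, bars are arm means and open symbols are counts of 0 drawn at 0.01 CPM. Mylpf and Hbb-bs are higher in all fl/fl libraries, Bpifa2, Cd79b and Thrsp mainly in fl/fl libraries 1 and 2, and Ctsk and Mrgprb1 are lower in all fl/fl libraries.

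Lymphocyte genes called higher were highest in fl/fl library 1 and above isotype in library 2, whereas library 3 exceeded every isotype library in 7 of the 34. Of 44 tested B cell genes 15 were called higher and none lower (median log2 4.13). Of 68 T cell genes 14 were called higher and none lower (median 2.86). Cd79a and Ms4a1, defining B cell markers, stood at 388, 67 and 0.118 against 3.11, 0.922 and 2.16 CPM and at 83.1, 23.3 and 0.0887 against 3.14, 3.4 and 4.3 CPM, and did not pass the test (adjusted p = 0.0582 and 0.196). The sum of the CD3 genes Cd3d, Cd3e and Cd3g was 388, 69.2 and 3.07 CPM against 15.7, 7.72 and 14.6 CPM. In these markers and in the sum fl/fl library 3 was the lowest of the 6 libraries. Outside both arms, Cd79a stood at 26.1 to 92.4 CPM and Ms4a1 at 34.1 to 80.7 CPM with MAR1, but Cd79b at 0.601 to 2.82 CPM. The T cell list took 0.154% to 0.254% of counts with MAR1, against 0.443 and 0.129% in fl/fl libraries 1 and 2. It took 0.0556% to 0.0603% with isotype, 0.064% to 0.0976% in cKO and 0.0732% to 0.0742% in untreated skin. Over the 180 lymphoid genes tested, leaving out 1 library gave between 0 and 92 higher calls and a median log2 fold change of 0.82 (without fl/fl library 1) to 3.00, against 2.76 with all libraries. With only fl/fl library 3 left in its arm their median was -1.55.

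Cd79b, a signalling chain of the B cell receptor, stood at 339.6, 58.2 and 0.591 CPM in fl/fl libraries 1, 2 and 3 and at 0.856, 0.49 and 0.175 CPM in isotype libraries 1, 2 and 3. Ighm, the constant region of the antibody mu chain, stood at 850.0, 191 and 1.12 against 3.2, 2.51 and 4.88 CPM, and Ighd, that of the delta chain of naive B cells, at 327, 59.8 and 0 against 0, 0.144 and 0.0584 CPM. For these genes fl/fl libraries 1 and 2 lay far above isotype and library 3 did not (log2 8.02 ± 1.79, adjusted p = 0.0357 for Cd79b; log2 6.62 ± 1.43, adjusted p = 0.0352 for Ighm). In untreated skin Ighm stood at 147 to 172 CPM and Ighd at 1.86 to 3.13 CPM, both above isotype. Cr2, the complement receptor of B cells and follicular dendritic cells, stood at 51.5, 7.66 and 0 CPM in fl/fl with 2 counts in the isotype libraries together (adjusted p = 0.0433). Fcer2a, the low-affinity IgE receptor of B cells, stood at 63.9, 17.6 and 0 CPM with 3 isotype counts (adjusted p = 0.0363). Of 19 plasma cell and antibody constant region genes only Igkc, the kappa chain constant region, was called, at 651, 104 and 0.0887 against 3.2, 3 and 3.97 CPM (log2 6.21 ± 1.64, adjusted p = 0.047).

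Among T cell genes, Ltb, the lymphotoxin beta chain, stood at 316, 50.3 and 0.798 CPM in fl/fl libraries 1, 2 and 3 and at 2.17, 1.24 and 2.05 CPM in isotype libraries 1, 2 and 3 (log2 6.07 ± 1.36, adjusted p = 0.0357). Trac, the constant region of the T cell receptor alpha chain, stood at 209, 33.1 and 0.561 against 2.11, 1.53 and 2.1 CPM (log2 5.40 ± 1.28, adjusted p = 0.0393). Ccr7, the receptor that guides naive T cells and dendritic cells to lymph nodes, stood at 176, 33 and 0.768 against 2.77, 0.836 and 1.87 CPM (log2 5.26 ± 1.34, adjusted p = 0.043). The order of libraries was that of the B cell genes, with library 3 below every isotype library in all 3 genes. Cytotoxic genes were fewer: Nkg7, a granule membrane protein, and Ccl5, a chemokine, were the called ones among 24 gamma-delta T and NK cell genes. Nkg7 stood at 54, 8.73 and 2.13 against 0.999, 1.1 and 1.58 CPM (adjusted p = 0.0351) and Ccl5 at 101, 21.6 and 0.296 against 0.714, 0.346 and 1.52 CPM (adjusted p = 0.0406). Trdc, the gamma-delta receptor chain, stood at 12.4, 8.93 and 2.84 against 1.63, 0.519 and 1.49 CPM (adjusted p = 0.0621).

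Of 16 genes of lymph node stroma and venules 2 were called higher and 1 lower. Glycam1, a mucin-like glycoprotein of high endothelial venules, stood at 515, 156 and 0 CPM in fl/fl libraries 1, 2 and 3 and at 0, 0.259 and 0.175 CPM with isotype (log2 10.55 ± 2.29, adjusted p = 0.0355). Ccl19, a chemokine of the T cell zone, stood at 381, 128 and 20.6 against 24.4, 11.5 and 14.2 CPM (log2 3.40 ± 0.80, adjusted p = 0.039). Ccl21a, also made by lymphatic vessels of skin, did not pass (adjusted p = 0.223), at 463, 164 and 38.7 against 101, 71.7 and 73 CPM. Fl/fl libraries 1 and 2 were above isotype for all 3 genes. Marco and Timd4, receptors of lymph node and other tissue macrophages, followed at 63.3, 9.13 and 0.296 against 0.314, 0.288 and 0.38 CPM and 76.4, 14.4 and 4.17 against 5.05, 1.35 and 2.92 CPM (adjusted p = 0.0376 and 0.047). Thymus markers were low: Rag1 had at most 9 counts in a library, Ptcra had no count in fl/fl (at least 11-fold lower, adjusted p = 0.0393), and Foxn1, also a keratinocyte factor, stood at 0.682, 7.68 and 7.06 against 4.68, 4.5 and 4.06 CPM. Outside both arms Ptcra stood at 9.28 to 17 CPM with MAR1, 0.85 to 6.18 CPM in cKO and 0 to 0.522 CPM in untreated skin.

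Among the myeloid lists, 2 of 23 dendritic and Langerhans cell genes were called higher and 1, Epcam, lower. Those called higher were Ccl22 and H2-DMa, a chemokine and an antigen loading factor of dendritic cells. In untreated skin the list took 0.646% to 0.724% of counts, against 0.677, 0.286 and 0.0368% in fl/fl libraries 1, 2 and 3. Ccl22 stood at 262, 59.6 and 5.14 against 8.02, 7.7 and 8.53 CPM and H2-DMa at 192, 63.2 and 8.66 against 13.3, 8.39 and 10.8 CPM (log2 3.75 ± 0.96, adjusted p = 0.0438; log2 3.02 ± 0.76, adjusted p = 0.0414). In untreated skin H2-DMa stood at 116 to 118 CPM, above fl/fl libraries 2 and 3, and Ccl22 at 4.49 to 14.1 CPM. Cd207 (langerin), the marker of Langerhans cells, did not pass (adjusted p = 0.247). The macrophage growth factor receptor gene Csf1r did not pass and stood at 143, 173 and 96.3 against 126, 131 and 135 CPM, a log2 difference of 0.07 ± 0.31 (adjusted p = 0.928). Chil3, a chitinase-like protein of alternatively activated macrophages, was lower in every fl/fl library, at 3.93, 4.2 and 7.95 against 35.6, 21.7 and 42.4 CPM (log2 -2.63 ± 0.58, adjusted p = 0.035). In the libraries outside both arms Chil3 stood at 0.451 to 3.35 CPM, below every fl/fl library. Of 32 interferon response genes, 30 of which had a positive fold change, Ifi27l2a and Bst2 were called higher, at 578, 309.6 and 99.7 against 45, 22.5 and 55.6 CPM and 191, 95.8 and 19.9 against 20.8, 17 and 25.3 CPM (adjusted p = 0.0325 and 0.0412). In untreated skin the interferon response list took 0.149% to 0.212% of counts, above every fl/fl library.

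Fat genes called higher were highest in fl/fl library 1 or 2. Of 30 white adipocyte genes 6 were called higher and none lower (median log2 1.12). Thrsp, a regulator of lipid synthesis, stood at 369, 250.3 and 5.47 CPM in fl/fl libraries 1, 2 and 3 and at 7.65, 6.11 and 5.76 CPM in isotype libraries 1, 2 and 3 (log2 5.00 ± 1.07, adjusted p = 0.0351). Car3, a carbonic anhydrase abundant in fat and in slow muscle, stood at 2021, 1633 and 57.5 against 59.4, 29.6 and 74.3 CPM (log2 4.51 ± 1.01, adjusted p = 0.0357). Plin1, which coats the lipid droplet, stood at 112, 148 and 8.63 against 15.2, 8.04 and 15.7 CPM (log2 2.78 ± 0.72, adjusted p = 0.0443). In each of these genes fl/fl libraries 1 and 2 lay above isotype and fl/fl library 3 within or below its range. Dgat2, the last enzyme of triglyceride synthesis, was above isotype in all 3 fl/fl libraries, at 289.6, 305 and 229 against 71.2, 98.9 and 105 CPM (log2 1.58 ± 0.34, adjusted p = 0.0347). Untreated skin held more Dgat2, 365 to 723 CPM. The white adipocyte list took 0.91, 1.23 and 0.365% of counts in fl/fl and 0.584, 0.594 and 0.552% with isotype. In untreated skin it took 1.67% to 1.98%, above every fl/fl library. The hormone genes Adipoq and Cfd, defining markers, did not pass (adjusted p = 0.0934 and 0.197). None of 17 brown adipocyte genes was called, and Ucp1 had no count in fl/fl and at most 0.285 CPM with isotype.

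Of 48 dermal fibroblast genes 5 were called higher and 1 lower. The list took 0.683, 1.61 and 0.448% of counts in fl/fl libraries 1, 2 and 3 and 0.945, 0.788 and 0.881% with isotype. In untreated skin it took 2.52% to 3.74%, above every fl/fl library. Pi16, a marker of fascia and adventitial fibroblasts, stood at 161, 262 and 68.9 against 56.5, 30.4 and 24.2 CPM (log2 2.14 ± 0.44, adjusted p = 0.0329). Dpt (dermatopontin), an organiser of collagen fibres, stood at 406, 565 and 169 against 100.2, 80.1 and 72.9 CPM (log2 2.17 ± 0.57, adjusted p = 0.0447). Clec3b (tetranectin) stood at 138, 177 and 46.4 against 23.3, 20.9 and 21.6 CPM (log2 2.46 ± 0.55, adjusted p = 0.0352). All 3 did not overlap between the arms and were highest in fl/fl library 2. General fibroblast genes did not pass: Col1a1, the chain of type I collagen, stood at 279, 1158 and 276 against 555, 613 and 595 CPM (adjusted p = 0.996) and Pdgfra at 36.6, 98.5 and 53.9 against 120.0, 121 and 118 CPM (adjusted p = 0.193). Lox, which crosslinks collagen, was lower in every fl/fl library, at 15.7, 54 and 70.6 against 165, 214 and 219 CPM (log2 -2.09 ± 0.49, adjusted p = 0.0365). Lox stood at 58.1 to 75.1 CPM in untreated skin, 10.8 to 21.4 with MAR1 and 19.7 to 48.5 in cKO, below every isotype library.

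Epidermal genes were spread more widely among the fl/fl libraries than among the isotype libraries. Basal keratinocyte genes took 0.479, 1.99 and 3.09% of counts in fl/fl libraries 1, 2 and 3 and 2.35, 2.93 and 2.7% with isotype. Stress keratinocyte genes, among them the keratins that skin makes on injury, took 1.26, 3.21 and 5.19% against 3.12, 3.17 and 3.21%. Krt6a, one of these keratins, stood at 1702, 5998 and 13565 against 6449, 8611 and 8152 CPM (adjusted p = 0.948). Fl/fl library 1 was the lowest of the 6 and fl/fl library 3 the highest in both the stress list and Krt6a. Of 123 epidermal genes tested 1 was called, lower in fl/fl: Flg2, a filaggrin-like protein of the cornified layer, at 40.7, 50 and 43.4 against 101, 193 and 222 CPM (log2 -1.94 ± 0.40, adjusted p = 0.0329). Without fl/fl library 3, 41 epidermal genes were called lower, with a median log2 fold change of -1.55, while all genes had a median of -0.59.

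Of 45 hair follicle genes 10 had a positive fold change and 1 was called, Corin, a protease of the dermal papilla, with no count in fl/fl and 5.34, 1.64 and 4.88 CPM with isotype, at least 49.9-fold lower (adjusted p = 0.0165). Corin stood at 6.19 to 14 CPM with MAR1, 1.83 to 5.07 CPM in cKO and 0.213 to 0.712 CPM in untreated skin. The inner root sheath keratin Krt71 stood at 54.5 CPM in isotype library 1 and at most 0.605 CPM in the other 5. Krt25 did the same, at 49.2 CPM against at most 0.946 CPM. Mc5r, the melanocortin receptor of sebaceous glands, was lower in every fl/fl library, at 5.13, 16.2 and 11.2 against 40.7, 39.2 and 30.7 CPM (log2 -1.76 ± 0.39, adjusted p = 0.0352). Mc1r, the receptor of melanocytes, was lower too, at 0.519, 0.558 and 0.621 against 4.2, 3.03 and 3.21 CPM (log2 -2.61 ± 0.65, adjusted p = 0.0403). Its level was 52 to 97.8 CPM with MAR1, 3.83 to 27.8 CPM in cKO and 0.478 to 2.06 CPM in untreated skin.

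Of 14 mast cell genes 3 were called, all lower, and all 14 had a negative fold change (median log2 -1.11). The list took 0.0416, 0.0981 and 0.0649% of counts in fl/fl libraries 1, 2 and 3 and 0.149, 0.12 and 0.125% with isotype. In untreated skin the list took 0.0342% to 0.0628%, with MAR1 0.0452% to 0.0968% and in cKO 0.0708% to 0.116%, below every isotype library. Mrgprb1, a receptor of connective tissue mast cells, stood at 8.9, 11.9 and 11.3 CPM in fl/fl libraries 1, 2 and 3 and at 43.1, 46.5 and 44.7 CPM in isotype libraries 1, 2 and 3. Every fl/fl library lay below every isotype library, and the libraries of each arm were close to each other (log2 -2.07 ± 0.34, adjusted p = 0.0232). Mrgprb1 stood at 9.66 to 11 CPM in untreated skin, 10.4 to 25.7 CPM with MAR1 and 14.8 to 22.6 CPM in cKO. Il1rl1, the IL-33 receptor, stood at 9.36, 20.6 and 16.3 against 63.5, 50.1 and 53.9 CPM (log2 -1.86 ± 0.40, adjusted p = 0.0347), and Mrgprb2 at 3.63, 2.86 and 2.45 against 11.7, 10.8 and 9.26 CPM (log2 -1.83 ± 0.47, adjusted p = 0.0424). Il1rl1 reached 56.8 CPM with MAR1, within its isotype range, and Mrgprb2 reached 12.1 CPM in untreated skin, above its isotype range. Cd200r3, a receptor of basophils and mast cells, stood at 3.44, 3.06 and 2.72 against 20.2, 13.3 and 22 CPM (log2 -2.59 ± 0.58, adjusted p = 0.0355). Outside both arms Cd200r3 stood at 205 to 336 CPM with MAR1, 28.1 to 111 CPM in cKO and 1.4 to 8.5 CPM in untreated skin. The chymase gene Cma1 stood at 155, 253 and 197 against 280.4, 203 and 248 CPM (adjusted p = 0.724), and the basophil protease gene Mcpt8 at 3.6, 12.9 and 2.69 against 6.71, 4.41 and 3.97 CPM (adjusted p = 0.827).

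Matrix genes at higher levels were also among those lower in fl/fl. Ctsk, cathepsin K, a collagen-degrading protease of fibroblasts and macrophages, stood at 138, 175 and 357 CPM in fl/fl libraries 1, 2 and 3 and at 1272, 1147 and 1137 CPM in isotype libraries 1, 2 and 3. The arms were far apart, with the libraries of the isotype arm nearly equal (log2 -2.41 ± 0.43, adjusted p = 0.0245). Thbs2, a thrombospondin of the matrix, stood at 33.1, 82.7 and 75.7 against 368, 276 and 369 CPM (log2 -2.40 ± 0.42, adjusted p = 0.0244). Mmp9, a matrix protease of neutrophils and keratinocytes, stood at 8.11, 12.8 and 21.3 against 86.9, 173 and 92.5 CPM (log2 -3.07 ± 0.51, adjusted p = 0.0232). In untreated skin Ctsk stood at 207 to 289 CPM, with MAR1 at 135 to 231 and in cKO at 423 to 1009. Thbs2 stood in the same groups at 93.2 to 161, 32.8 to 67 and 62.6 to 118 CPM. Mmp9 stood there at 23.5 to 33.6, 2.55 to 6.62 and 4.48 to 13.3 CPM. For all of these genes every library outside both arms lay below every isotype library. Of 22 matrix metalloproteinases tested 3 were called, all lower, and of 43 collagen genes 4 were lower and 1 higher (families chosen after their values were seen). Over all genes tested, 3.97% were called lower and 1.25% higher, and the families were not tested as sets. Hspa5, the main chaperone of the endoplasmic reticulum, was lower in every fl/fl library, at 263, 228 and 296 against 871, 665 and 817 CPM (log2 -1.58 ± 0.32, adjusted p = 0.0325). Hspa5 stood at 349 to 782 CPM in the libraries outside both arms, above every fl/fl library. Outside the matrix genes, Fgf9, a fibroblast growth factor, stood at 3.63, 2.05 and 1.24 against 48.2, 33.5 and 53.3 CPM (log2 -4.28 ± 0.91, adjusted p = 0.0347). Fgf9 reached 845 to 1109 CPM with MAR1 and 77.2 to 399 CPM in cKO. The untreated libraries held 3.9 and 82.3 CPM, so that 1 of them lay above every isotype library.

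Most genes lower in fl/fl were of low level, and among them were receptor and neuronal genes. Olfactory and vomeronasal receptors are made by sensory neurons of the nose. Of 1753 such genes, 647 were tested, and 140 of these were called lower and none higher. The median log2 fold change of the 647 was -3.33, and it was -1.78 once the 292 genes without a count in 1 arm were set to their bound. They took 0.0479% to 0.0767% of counts in fl/fl and 0.269% to 0.438% with isotype, with 0.466% to 9.36% in the cKO and MAR1 libraries. The untreated libraries held 0.0486% and 0.277%, so that 1 lay in the fl/fl range and 1 in the isotype range. Or1f19 had no count in fl/fl and 5.99, 3.89 and 5.93 CPM with isotype, at least 66.6-fold lower (adjusted p = 0.0229). Vmn2r10 had none either, against 4.25, 1.61 and 3.13 CPM, at least 37.9-fold lower (adjusted p = 0.0229). The 832 lower genes had a median level of 0 CPM in fl/fl, 1.23 CPM with isotype, 20.8 CPM with MAR1, 4.89 CPM in cKO and 0.481 CPM in untreated skin. In all tested genes these medians were 10.1, 9.3, 9.17, 9.77 and 10.5 CPM. With all 6 libraries thinned to the shallowest of them, 109 receptor genes were called lower. The calls rested on the other libraries in the fit: 355 of the receptor genes passed the filter in the 6 libraries alone, where 61 were called lower, and of 519 tested without the MAR1 libraries none was called. Without fl/fl library 1, 2 or 3 the fit called 15, 0 and 161 lower, and without isotype library 1, 2 or 3 it called 0, 9 and 0. None was called higher in any of these fits.

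Of 57 tested neuron genes 17 were called lower and none higher, with a median log2 fold change of -2.15, or -1.74 with the 18 genes without a count in 1 arm at their bound. Rbfox3, the neuronal splicing factor NeuN, stood at 0, 0.357 and 0.266 against 6.71, 2.54 and 7.36 CPM (log2 -4.68 ± 0.95, adjusted p = 0.0329). Anks1b, a postsynaptic protein, had no count in fl/fl and 5.37, 1.44 and 2.19 CPM with isotype, at least 37.9-fold lower (adjusted p = 0.0171). As a share of counts the list took 0.00788, 0.0138 and 0.0221% in fl/fl libraries 1, 2 and 3 and 0.0256, 0.0193 and 0.025% with isotype, so that fl/fl library 3 lay within the isotype range. The synaptic markers Snap25 and Syt1 were low in both arms, at most 1.39 CPM, and did not pass (adjusted p = 0.228 and 0.924). Counted together with the glial genes of nerve, 18 of 87 were called lower. In the 6 libraries alone this held for 4 of 73, without the MAR1 libraries for 0 of 82, and with 1 of the 6 left out for between 0 and 23, the extremes being the fits that lacked fl/fl library 2 and fl/fl library 3.

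Each gene called higher was assigned to the fl/fl library that held at least 80% of its summed CPM. Library 1 was the highest for 221 of the 262 genes, library 2 for 32 and library 3 for 9. Of the 262, 29 were held by library 1 alone, 5 by library 2, none by library 3 and 228 by none. Those of library 1 were 20 lymphoid, 2 myeloid and 1 muscle gene (Mylpf) and 6 on no list, among them Marco. Those of library 2 were Bpifa2, Amy1, Car6, Dnase1 and Chia1. The libraries shared muscle: the median share of the 11 sarcomere genes was 52.6%, 29.1% and 19.4% in fl/fl libraries 1, 2 and 3. It was 80.2%, 17.9% and 0.262% for the 15 B cell genes, 7.45%, 92.4% and 0.79% for the 6 salivary genes and 73.6%, 15.1% and 11.3% for the 5 red cell genes.

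**Figure D4:**
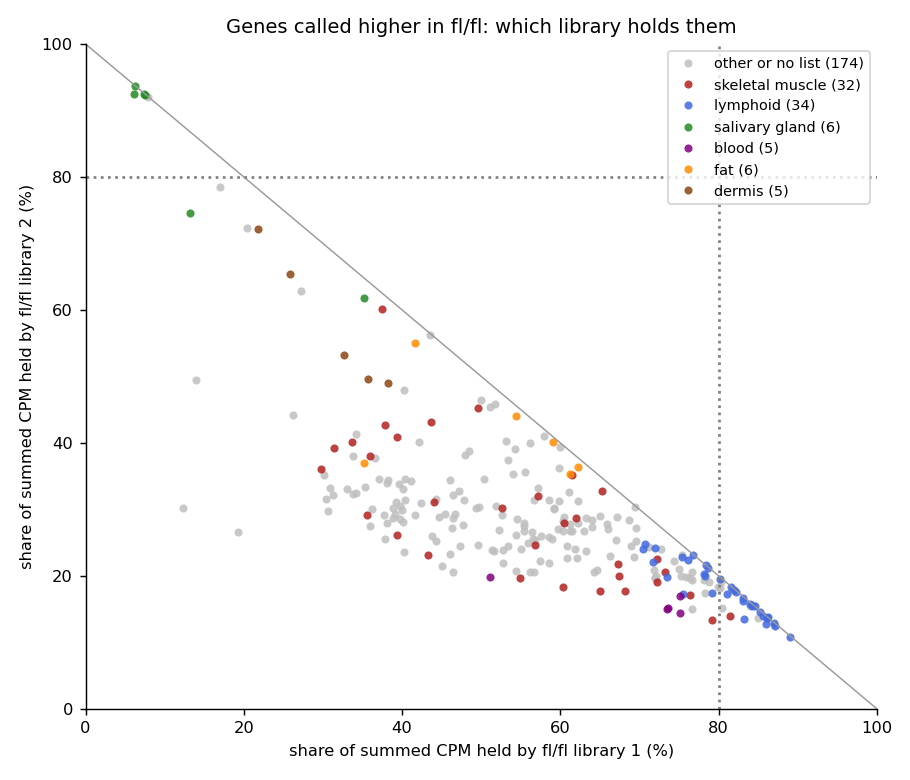
Share of the summed CPM of each of the 262 genes called higher that fl/fl library 1 (x axis, percent) and library 2 (y axis, percent) held; the rest up to the diagonal line is library 3, dotted lines mark 80%, and colours are tissue classes. Lymphoid genes gather at the lower right on the diagonal, salivary genes at the upper left, and muscle genes lie inside, with a share in all 3 libraries.

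Set against the isotype arm 1 library at a time, fl/fl library 1 and library 2 lay above every isotype library in all 262 genes called higher, and library 3 in 180. By class, library 3 lay above in 32 of 32 muscle and 5 of 5 red cell genes, in 7 of 34 lymphoid genes and in 2 of 6 salivary genes. The median ratio of library 3 to the isotype mean was 5.45 in the muscle genes, 16 in the red cell genes and 0.548 in the lymphoid genes. Libraries 1 and 2 had median ratios of 15.9 and 8.03 in the muscle genes and 99.6 and 17.7 in the lymphoid genes. The members were called partly through libraries 1 and 2, so these ratios describe them and carry no test.

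Of the genes called higher 167 were on no list, and 126 of them were above isotype in fl/fl library 3 as well. Those with the smallest p-values were Coq10a, Gstp2 and Orm1. Coq10a, which binds coenzyme Q in mitochondria, stood at 82.6, 68.6 and 76.9 CPM in fl/fl libraries 1, 2 and 3 and at 16.1, 19 and 17.9 CPM in isotype libraries 1, 2 and 3 (log2 2.10 ± 0.30, adjusted p = 0.0171). Orm1, an acute phase protein, stood at 77, 49.7 and 43 against 8.42, 9.19 and 12.9 CPM (log2 2.48 ± 0.36, adjusted p = 0.0171). Gstp2, a glutathione transferase whose reads can be shared with its copy Gstp1, stood at 31.9, 53.8 and 36.1 against 8.02, 6.23 and 5.64 CPM (log2 2.61 ± 0.38, adjusted p = 0.0171). The arms did not overlap in these 3 genes. The most abundant of the 167 was Aldoa, the aldolase of muscle and other tissues, at 10242, 3753 and 4222 against 923, 943 and 1091 CPM (log2 2.62 ± 0.60, adjusted p = 0.036). Selenow, a selenoprotein abundant in muscle, stood at 2305, 894 and 524 against 239, 181 and 219 CPM (log2 2.54 ± 0.55, adjusted p = 0.0347). Lars2, the mitochondrial leucyl-tRNA synthetase, stood at 3666, 1896 and 2182 against 625, 943 and 424 CPM (log2 1.96 ± 0.41, adjusted p = 0.0331).

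The called sets also differed in transcript length, taken from the longest protein-coding transcript of a gene (any transcript where it has none) in GENCODE M21. Above a mean level of 10 CPM, the 239 matched genes called higher had a median length of 1865 bases, the 147 called lower 5077 bases and all 10398 genes 3103 bases. Of genes up to 1 kb 8.25% were called higher and 0.317% lower, and of genes over 5 kb 0.675% and 3.33%. The median log2 fold change fell from 0.83 in the first bin to -0.32 in the last. Across these genes, which are no independent replicates, Pearson's r of the fold change with log2 length was -0.34 and Spearman's rho -0.44. The same lean held for genes on no list (median 1762 bases for 152 called higher, 5220 for 133 called lower). Genes up to 1 kb lay 0.85, 0.08 and 0.24 above the mean of the 6 libraries (median, log2) in fl/fl libraries 1, 2 and 3 and 0.18, 0.53 and 0.40 below it in isotype libraries 1, 2 and 3. Genes over 5 kb lay 0.32, 0.12 and 0.09 below it in fl/fl and 0.05, 0.35 and 0.16 above it with isotype. For the short genes fl/fl library 1 lay farthest from the mean, and for the long ones isotype library 2. The part of transcript length in the tissue differences was not tested.

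**Figure D5:**
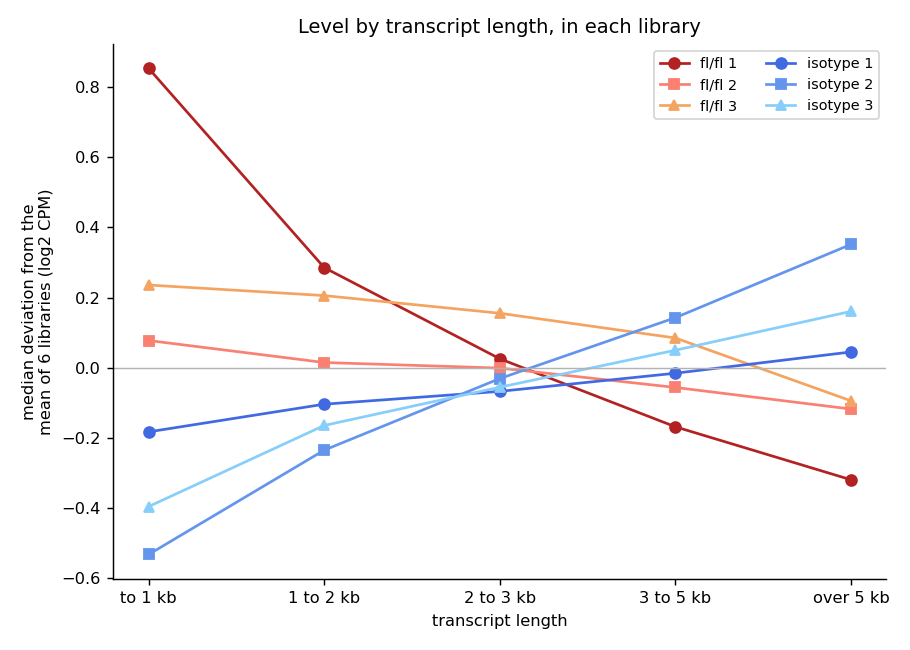
Median deviation of each library from the mean of the 6 libraries (y axis, log2 CPM) for genes of 10 CPM or more on average, in 5 bins of transcript length (x axis). The line of fl/fl library 1 falls from 0.85 to -0.32, and the 3 isotype lines rise from -0.18, -0.53 and -0.40 to above 0.

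Il4ra, the gene that fl/fl mice carry in floxed form, stood at 215, 145 and 176 CPM in fl/fl libraries 1, 2 and 3 and at 196, 179 and 193 CPM in isotype libraries 1, 2 and 3. The arms overlapped, with a log2 fold change of -0.08 ± 0.56 (adjusted p = 0.964). Cyp24a1, the vitamin D hydroxylase induced through the vitamin D receptor, stood at 1027, 1727 and 10563 CPM in fl/fl libraries 1, 2 and 3 and 4509.9, 4633 and 3722 CPM with isotype (adjusted p = 0.99). Fl/fl library 3 was the highest of the 6, and the isotype libraries lay between it and the other two. Without fl/fl library 3 the gene was called lower in fl/fl (log2 -2.03).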

How the data were processed

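Neck skin RNA of 14 libraries was measured by sequencing, and 6 libraries of both MC903 control arms were compared. The authors deposited 1 table of estimated counts per gene symbol. Salmon 1.2.1 and DESeq2 1.44.0, with build GRCm39, are listed per the submitters' processing notes without a role for each, and the annotation is not given in the sources used here. Estimated counts were rounded. The row without a gene name (0.0137% to 0.0558% of counts in the 6 libraries) was left out.

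Counts were scaled with TMM and filtered with filterByExpr in edgeR 4.0.16 (R 4.3.3, limma 3.58.1), and tested with the quasi-likelihood test (robust, 2-sided) in 1 fit of 5 group means over all 14 libraries with 9 residual degrees of freedom, with Benjamini-Hochberg adjustment over 20939 genes. The procedure was tested on simulated data. Totals of 34.3 M to 48.0 M counts limit counting error only; estimated counts of near-identical genes are uncertain. A fold against an arm without counts is a bound from 3 counts per library. DESeq2 1.42.0, another scaling, other filters, other sets of libraries, thinning and a replicate block were alternatives. Lists hold 1286 genes, of which 1262 were in the table; members and lists were chosen with earlier results of these data known. Named genes were the defining markers of a list, its members with the smallest p or highest level, and the largest differences of at least 1 CPM without overlap; Chia1, Marco, Fgf9, Hspa5, Lars2 and the gene families were partly chosen after their values were seen. Promoters came from RefSeq (GRCm38.p6) and lengths from GENCODE M21, and 98.5% of genes with at least 10 CPM had a length. Figures were drawn with matplotlib 3.10.9.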

Additional observations from a re-analysis of the deposited data

How the results depend on the processing

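Against 1094 calls (262 higher, 832 lower), DESeq2 called 3254 (1227 higher, 2027 lower), 1093 of them shared. Without a filter 171 genes were higher. The 6 libraries alone gave 455 calls (171 higher, 284 lower; 37.6% higher against 23.9%), and a fit without the MAR1 libraries gave 3 (1 higher, 2 lower). Leaving out 1 of the 6 libraries gave 0 to 3176 calls, 0 to 635 higher and 0 to 2541 lower. RLE scaling (883), the stricter filter (1243), scaling without tissue genes (1028) and thinning (813) stayed within 1.5 times. The cause of these changes was not tested. Where an arm was left with 1 library, that library was assumed to vary like the other groups.

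With the replicate number as a block in the 6 libraries, edgeR called 0 genes (0 higher, 0 lower; 3605 at an unadjusted p under 0.05). The arms come from separate experiments, and libraries with the same number had correlations of deviations of 0.087, 0.025 and -0.058, so the numbers do not pair them.

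Without fl/fl libraries 1 and 2, a setting chosen after seeing the data, 1 gene was called (1 higher, 0 lower; 2981 at an unadjusted p under 0.05), and the median over all genes was -0.52. Of 80 named calls then tested, 22 reversed in sign without passing the test, with log2 fold changes of Amy1 -1.002, Dnase1 -0.13, Cd79b -0.065, Ighm -1.96, Ighd -4.12, Cr2 -2.49, Fcer2a -3.04, Igkc -5.49, Ltb -1.49, Trac -2.07, Ccr7 -1.55, Ccl5 -1.85, Glycam1 -5.19, Marco -0.45, Ccl22 -0.95, H2-DMa -0.62, Bst2 -0.39, Thrsp -0.55, Car3 -0.24, Plin1 -0.90, Mup14 -1.03 and Mup22 -0.45; those of genes with few counts depend on the prior count. Over the fits that left out 1 library, Cyp24a1 ranged from -2.03 (without fl/fl replicate 3, a reversal) to 0.44; without that library the median over all genes was -0.59.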

Other observations

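Major urinary proteins, a family of lipocalins made mainly by liver and by glands, were chosen after their values were seen. Of 20 tested genes 4 were called higher in fl/fl (median log2 3.39) and none lower. They took 0.167%, 0.161% and 0.00282% of counts in fl/fl libraries 1, 2 and 3 against 0.00146% to 0.00564% with isotype. In untreated skin the share was 0.256% to 0.315%, above every fl/fl library. Mup22 stood at 1547, 1096 and 24 CPM against 38.9, 5.56 and 34 CPM (log2 5.09 ± 1.12, adjusted p = 0.0352). Fl/fl libraries 1 and 2 were high, and library 3 lay within the isotype range. These genes are near-identical copies that share reads, so single values are uncertain.

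Cytosolic ribosomal protein genes took 14.4%, 8.71% and 9.07% of counts in fl/fl libraries 1, 2 and 3 and 8.60%, 6.88% and 7.14% with isotype. Of 84 tested 1 was called, lower, with a median log2 fold change of 0.78. Of 90 nuclear genes of the respiratory chain and ATP synthase 7 were called higher and 1 lower, with a median of 0.96. Of 371 zinc finger genes 8 were called lower and none higher, with a median of -0.24, a smaller share than the 3.97% of all tested genes called lower.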
